A study of Mus musculus with 6 samples.

Results

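The 36 genes described here make, regulate or respond to sterols and fatty acids, and were taken by symbol from a fixed list. All 36 were found among the 40879 gene symbols of the count files, and 35 of them had enough counts to be tested. Levels were measured in 6 libraries of primary hepatic stellate cells, the retinoid-storing pericytes of the liver, from wild-type male mice. In 3 libraries the cells had been kept with APB-R3, an engineered interleukin-18 binding protein, for 24 h, and in 3 with vehicle for 24 h. The dose of APB-R3 was 150, given in µg/ml in the series text and in µg/kg in the sample protocol, so that its unit is unclear. The labels name no mouse strain, age, number of animals or passage, and whether the replicates are separate animals, cultures or aliquots is not given. A p-value here is thus set against the variation among these 6 libraries, and that variation could be purely technical.

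Cholesterol is built from acetyl-CoA through mevalonate, squalene and lanosterol, and saturated and monounsaturated fatty acids are built from the same precursor. Both pathways are switched on by the SREBP transcription factors, which the escort protein SCAP carries out of the endoplasmic reticulum when sterols are scarce and which INSIG proteins hold back when sterols are plentiful. The LXR nuclear receptors answer sterol surplus by raising cholesterol export. Stellate cells store retinyl esters in lipid droplets and lose them on activation, which ties lipid supply to their state.

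Libraries held 8323809 to 10792531 counts with APB-R3 and 10431310 to 10573916 with vehicle. The labelled cell type was only partly borne out by its markers. The stellate gene Dcn (274 to 332 CPM, a gene's counts scaled to the library's total count) was present, whereas Lrat, the enzyme that makes retinyl esters, had 1.09 to 2.88 CPM. The endothelial marker Lyve1 had 1521 to 1889 CPM. All values below are therefore those of whole cultures, in which fewer cells of a type and less RNA per cell cannot be told apart. The kit is designed to give 1 fragment per transcript near its 3′ end, so levels of different genes are compared without dividing by length. Acta2, the smooth muscle actin of activated stellate cells, had 103, 108 and 80.6 CPM with APB-R3, against 133, 131 and 129 CPM with vehicle. The groups were separate, and its log2 fold change was −0.43 (SE 0.11, edgeR unadjusted p = 0.000800, adjusted p = 0.9998) and ran from −0.53 to −0.31 with libraries left out. Postn, an activation marker of the matrix, had 7.45, 8.80 and 8.14 CPM with APB-R3, against 14.7, 10.97 and 9.33 CPM with vehicle, also without overlap (log2 fold change −0.52, SE 0.24, edgeR unadjusted p = 0.0412). Of the 10 activation markers, all tested, 0 passed and 6 had a log2 fold change below 0. At an unadjusted p under 0.05 in edgeR, 3 lay lower (1.57% of all tested genes) and 0 higher (1.75%). Besides Acta2 and Postn this was Col1a2, with overlapping groups and a log2 fold change of −0.25 (SE 0.11, edgeR unadjusted p = 0.0339). Without overlap, 2 of the 10 markers lay lower (4.16% of all tested genes) and 1, Timp1, higher (4.75%). Acta2 and Postn are shown because they lay lower without overlap, a choice made after the values were seen. Timp1, Spp1, Lox and Col3a1 had log2 fold changes above 0, at 0.18, 0.21, 0.08 and 0.03. The 10 markers summed to 1168 to 1426 CPM with APB-R3 and 1390 to 1519 CPM with vehicle, and their part in the members' values was not tested. A pair of libraries stood apart. The 12 inflammatory genes were listed because 1 library stood apart for them in earlier results of these data. Their sum is thus not an independent observation. In APB-R3 replicate 1 they summed to 2042 CPM, against 1196 and 1256 CPM in the other APB-R3 libraries and 1102 to 1270 CPM in vehicle libraries. Nfkbia held 1207 CPM of the sum in APB-R3 replicate 1, and 797 to 904 CPM in the other libraries. In vehicle replicate 2 the 13 hepatocyte markers summed to 137 CPM, against 22.5 to 35.7 CPM in APB-R3 libraries and 26.5 and 31.3 CPM in the other vehicle libraries. All of them but Ttr and Cyp2e1 were highest in vehicle replicate 2.

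No member passed edgeR's quasi-likelihood test between APB-R3 and vehicle at an adjusted p under 0.05, and neither did any of the 12776 genes tested (0%). The adjusted p of all 35 tested members was 0.9998. At an unadjusted p under 0.05 there was 1 member lower in APB-R3, Srebf2, beside 1.57% of all tested genes, and 0 were higher, beside 1.75%. With 1 library left out this count on the lower side ran from 0 without APB-R3 replicate 1 (1.9% of all genes then tested) to 5 without APB-R3 replicate 3 (2.64%), with 4 without APB-R3 replicate 2 (1.83%). Leaving out vehicle replicate 1 gave 3 (1.32%), leaving out vehicle replicate 2 gave 1 (1.32%) and leaving out vehicle replicate 3 gave 2 (1.34%). For members, the leave-out p-values printed below were picked for being under 0.05. Each comes from a fit without the library of its group that went most against the direction of the difference, which widens that difference by construction. They are no evidence of a difference, and members' adjusted p was 0.90 or more in all these fits. DESeq2 and limma-voom likewise gave 0 adjusted calls among the members. Each gave 1 member lower at an unadjusted p under 0.05, beside 1.36% (DESeq2) and 1.59% (limma-voom) of all tested genes. The fitted log2 fold change was below 0 in 26 of 35 members, against 49.3% of all tested genes, with a median of −0.14 over the members and 0.003 over all tested genes. Without APB-R3 replicate 1 it was below 0 in 20 of 35 members, against 50.6% of all genes then tested, and the member median was −0.03. Without APB-R3 replicate 3 it was below 0 in 25 of 35 members, with a median of −0.23. The size of the median thus moved with the library left out, while its sign was kept. The genes of SREBP control and sterol transfer had a median of −0.26 with 4 of 6 below 0, and of −0.17 with 4 of 6 below 0 without APB-R3 replicate 1. The groups did not overlap, with every APB-R3 library below every vehicle library, in 4 members (4.16% of all tested genes) and with every APB-R3 library above in 2 (4.75%). Without APB-R3 replicate 1, 6 lay lower (8.63%) and 4 higher (10.3%), and without APB-R3 replicate 3, 12 lay lower (11% of all genes then tested) and 2 higher (9.96%).

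**Figure D1:**
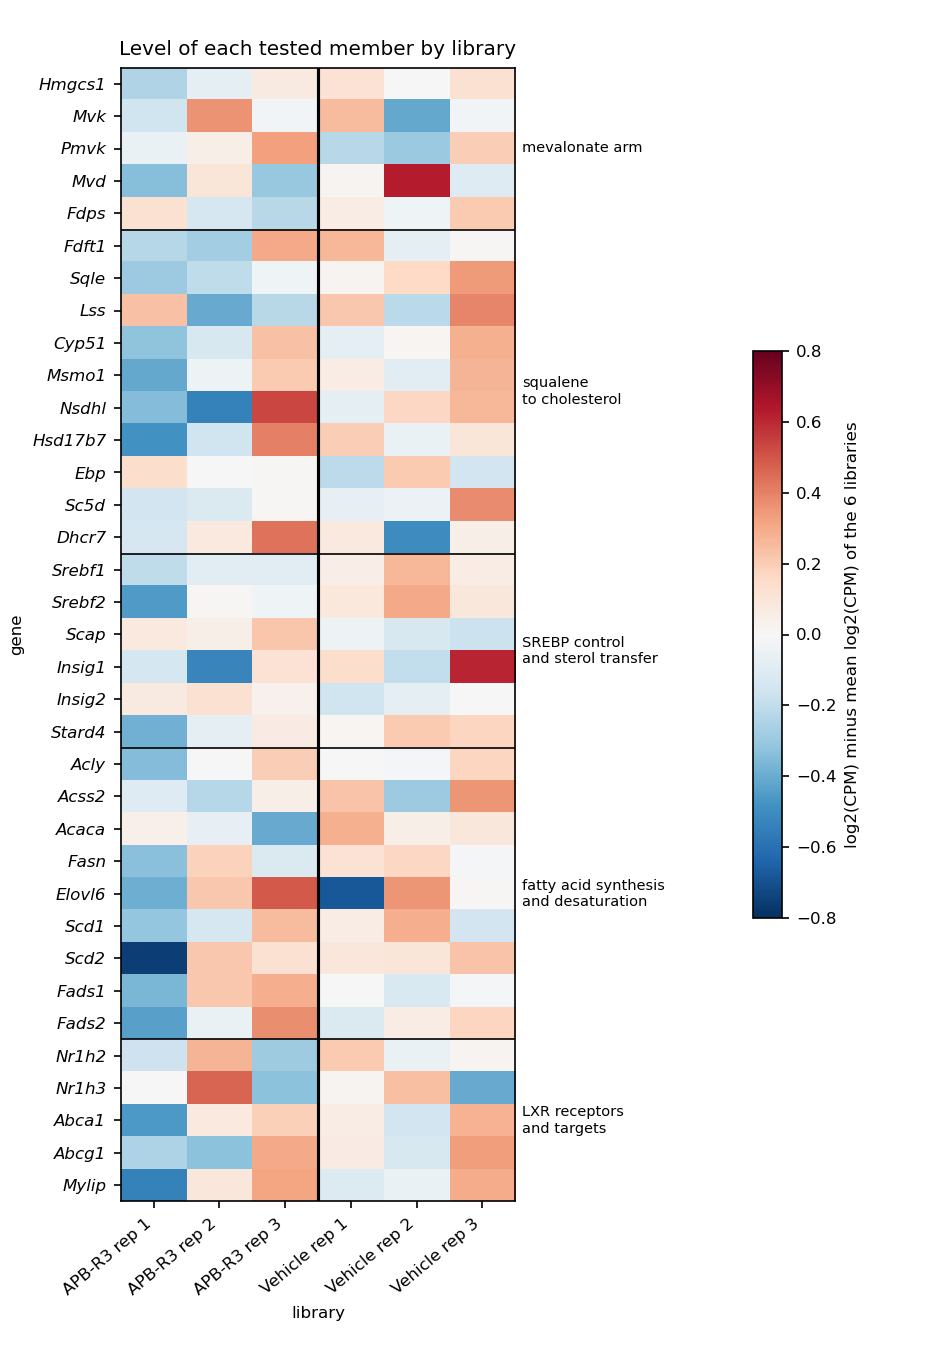
Level of the 35 tested members by library. Columns are the 3 APB-R3 and 3 vehicle libraries, rows are genes in 5 role groups, and colour is the log2 CPM minus the gene's mean log2 CPM over the 6 libraries. APB-R3 replicate 1 was the lowest library in 18 of the 35 genes, and replicate 3 of each group was the highest in 11 (APB-R3) and 12 (vehicle).

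Many promoters of this pathway carry a sterol regulatory element, the site bound by SREBP, near a CCAAT box, bound by NF-Y. A RefSeq promoter window (GRCm38.p6, 250 bases before to 50 after a transcript start) was matched by symbol for 28 of the 36 members, with 37 windows in all. Abcg1, Fads1, Fdft1, Fdps, Scd1, Scd2, Sqle and Stard4 had none. The element TCACNCCAC, searched on both strands, was found in 1 of 37 member windows (2.7%), that of Hmgcs1, and in 1.24% of all 32851 windows. CCAAT was found in 22 of 37 member windows (59.46%), against 37.41% of all windows. The Sp1 box GGGCGG was found in 26 (70.27%, against 35.66%) and the E-box CACGTG in 7 (18.92%, against 7.15%). The LXR-type direct repeat with a 4-base spacer was searched only in its exact consensus letters. In that form it was found in none of the member windows and in 0.02% of all windows. Repeats with the same spacer that differ in some letters were not counted, such as those in the Abca1, Fasn and a Srebf1 window. The count of none thus does not show that member windows lack an LXR-type element. These are matches of letters in a short window, not measured binding sites. A stretch that differs from TCACNCCAC in 1 base was not counted, such as tcaccccat in the Srebf2 window. The windows of 4 members are shown, that of Hmgcs1 for its exact element and those of Srebf2, Mvd and Insig1 for having the smallest p or the largest fold change below 0 among the members. They lie at chr13:119690101-119690400, plus strand (Hmgcs1), chr15:82147019-82147318, plus strand (Srebf2), chr8:122443373-122443672, minus strand (Mvd) and chr5:28071162-28071461, plus strand (Insig1). Each is written 5′ to 3′ on the gene's strand, with capitals for TCACNCCAC and for CCAAT or its reverse complement ATTGG.
Hmgcs1: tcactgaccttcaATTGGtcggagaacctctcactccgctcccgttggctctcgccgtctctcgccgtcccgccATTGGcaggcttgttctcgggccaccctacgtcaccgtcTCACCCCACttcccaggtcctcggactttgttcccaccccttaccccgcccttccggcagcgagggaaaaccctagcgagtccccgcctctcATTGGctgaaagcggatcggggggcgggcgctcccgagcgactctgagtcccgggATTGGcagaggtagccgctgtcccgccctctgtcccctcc
Srebf2: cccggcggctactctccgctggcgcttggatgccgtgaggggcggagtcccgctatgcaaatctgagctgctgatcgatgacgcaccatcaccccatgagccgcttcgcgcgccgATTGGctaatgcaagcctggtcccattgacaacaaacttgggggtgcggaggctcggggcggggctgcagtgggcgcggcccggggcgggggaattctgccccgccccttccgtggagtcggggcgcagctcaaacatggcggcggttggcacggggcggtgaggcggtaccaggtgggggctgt
Mvd: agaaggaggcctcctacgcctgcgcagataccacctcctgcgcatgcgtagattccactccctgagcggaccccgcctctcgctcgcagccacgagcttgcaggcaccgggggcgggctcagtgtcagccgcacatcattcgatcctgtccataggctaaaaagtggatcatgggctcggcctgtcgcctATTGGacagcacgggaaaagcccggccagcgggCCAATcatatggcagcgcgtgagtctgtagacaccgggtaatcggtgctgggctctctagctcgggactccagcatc
Insig1: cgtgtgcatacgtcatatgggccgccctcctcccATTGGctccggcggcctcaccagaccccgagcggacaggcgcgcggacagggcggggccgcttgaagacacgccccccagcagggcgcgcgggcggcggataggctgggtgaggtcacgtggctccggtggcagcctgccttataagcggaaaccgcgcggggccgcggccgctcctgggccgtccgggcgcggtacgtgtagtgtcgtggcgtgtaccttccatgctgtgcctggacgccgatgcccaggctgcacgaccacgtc
The Hmgcs1 window has 4 CCAAT boxes around its element, that of Mvd 2, and those of Srebf2 and Insig1 1 each.

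The 3 members with the smallest p-values, Srebf2, Stard4 and Scap, act in SREBP control and sterol transfer. Srebf2, which encodes the SREBP that mainly drives cholesterol synthesis, had 28.6, 39.4 and 38.1 CPM in APB-R3 replicates 1 to 3, against 41.5, 48.3 and 41.6 CPM in vehicle replicates 1 to 3. The groups were separate, and APB-R3 replicate 1 was the lowest library. Its log2 fold change was −0.31 (SE 0.14, 95% interval −0.60 to −0.02, edgeR unadjusted p = 0.0358), and −0.19 without APB-R3 replicate 1, in a range of −0.40 to −0.10 with libraries left out. Srebf1, which encodes the SREBP forms of fatty acid and sterol synthesis, had 24.0, 26.1 and 26.0 CPM with APB-R3, against 28.8, 33.4 and 28.9 CPM with vehicle. These groups did not overlap either, with a log2 fold change of −0.26 (SE 0.14, edgeR unadjusted p = 0.0774) that stayed between −0.30 and −0.15 with libraries left out. Vehicle replicate 2, the library with the highest hepatocyte marker sum, was the highest for both genes. Without it the log2 fold changes were −0.22 for Srebf2 and −0.18 for Srebf1.

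Scap and Insig2 lay on the other side. Scap, the escort that carries SREBP to the Golgi, had 56.6, 55.4 and 62.5 CPM with APB-R3, against 52.2, 49.2 and 47.8 CPM with vehicle, a log2 fold change of 0.22 (SE 0.11, edgeR unadjusted p = 0.0647). The groups were separate, and with libraries left out the fold change ran from 0.18 to 0.25. Insig2, a retention protein of SCAP and SREBP, had 36.4, 37.7 and 35.4 CPM with APB-R3, against 31.0, 32.8 and 34.6 CPM with vehicle. Its groups were separate by less than 1 CPM, with a log2 fold change of 0.15 (SE 0.13, edgeR unadjusted p = 0.258). Insig1, its paralog and itself an SREBP target, had 13.9, 10.7 and 16.7 CPM with APB-R3, against 17.0, 13.4 and 23.4 CPM with vehicle. Here the groups overlapped, and the log2 fold change of −0.39 (SE 0.22) was −0.16 without vehicle replicate 3, the highest library. It was −0.55 without vehicle replicate 2 (edgeR unadjusted p = 0.0222) and −0.54 without APB-R3 replicate 3 (edgeR unadjusted p = 0.0378). Stard4, which encodes a cytosolic sterol transfer protein under SREBP control, had 41.6, 51.6 and 56.8 CPM with APB-R3, against 55.0, 62.9 and 61.1 CPM with vehicle. APB-R3 replicate 3 lay above vehicle replicate 1, and the log2 fold change of −0.26 (SE 0.13, edgeR unadjusted p = 0.0503) was −0.15 without APB-R3 replicate 1. Leaving out APB-R3 replicate 3 gave −0.35 (edgeR unadjusted p = 0.0206).

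**Figure D2:**
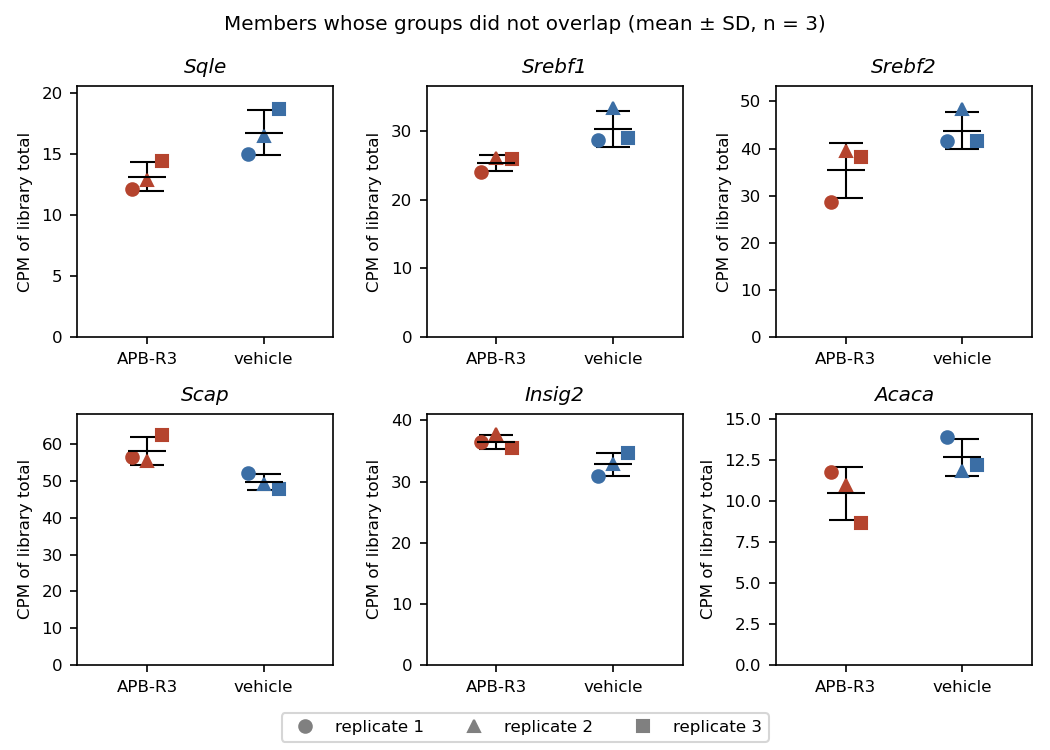
CPM of the 6 members whose groups did not overlap, by library. Points are libraries, shaped by replicate number, with the mean and SD (n = 3 per group), and the vertical axes start at 0. Sqle, Srebf1, Srebf2 and Acaca lay lower in all APB-R3 libraries, and Scap and Insig2 higher. None passed edgeR's test over all genes.

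The mevalonate arm, which makes the isoprenoid units, summed to 120, 137 and 136 CPM with APB-R3, against 145, 141 and 145 CPM with vehicle. These sums did not overlap between the groups, those of the other role groups did, and none was tested. In this arm, 3 of 5 tested members had log2 fold changes below 0. Hmgcs1, the enzyme that makes HMG-CoA, was its most abundant member with 63.2, 71.2 and 78.5 CPM with APB-R3, against 80.8, 74.9 and 81.2 CPM with vehicle. The groups overlapped, and the log2 fold change was −0.16 (SE 0.11, edgeR unadjusted p = 0.160), with a range of −0.23 to −0.09 with libraries left out. Mvd, the decarboxylase that yields isopentenyl diphosphate, had 14.7, 19.8 and 15.1 CPM with APB-R3, against 18.9, 28.7 and 17.3 CPM with vehicle. Its log2 fold change of −0.39 (SE 0.20, edgeR unadjusted p = 0.0660) was −0.12 without vehicle replicate 2 and −0.55 without APB-R3 replicate 2 (edgeR unadjusted p = 0.0213). Fdps, which joins these units to farnesyl diphosphate, averaged 17.5 ± 2.24 CPM with APB-R3 and 19.5 ± 1.70 CPM with vehicle (SD, n = 3 each). The kinases Mvk and Pmvk, the next enzymes after mevalonate, had log2 fold changes of 0.11 (SE 0.21) and 0.20 (SE 0.25), both smaller than their errors, and Mvk turned to −0.06 without APB-R3 replicate 2 and −0.04 without vehicle replicate 2. Idi1, the isomerase of isopentenyl diphosphate, was below the count filter, with 2, 5 and 4 counts with APB-R3 and 4, 15 and 5 counts with vehicle. So few counts stand against 264 to 4573 counts over the 6 libraries for the other enzymes of the sterol route. The kit counts transcripts near their 3′ end, and whether Idi1 was low in the cells or its reads were not assigned to it was not tested.

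In the steps from squalene to cholesterol, 8 of 10 members had log2 fold changes below 0, with a median of −0.14, or −0.04 without APB-R3 replicate 1 with 7 of 10 below 0. Sqle, the squalene epoxidase and a rate-limiting step of this branch, was the only one whose groups did not overlap. It had 12.1, 12.9 and 14.5 CPM with APB-R3, against 15.1, 16.6 and 18.7 CPM with vehicle. Its log2 fold change was −0.35 (SE 0.19, edgeR unadjusted p = 0.0717) and ran from −0.43 to −0.27 with libraries left out. Msmo1, the methylsterol oxidase, was the most abundant, with 43.2, 55.8 and 66.5 CPM with APB-R3, against 59.9, 54.2 and 69.3 CPM with vehicle. APB-R3 libraries covered most of the vehicle range, and the log2 fold change of −0.15 (SE 0.14) ran from −0.29 to −0.01 with libraries left out, nearest 0 without APB-R3 replicate 1. Sc5d, a desaturase of the sterol ring, had 29.6, 30.3 and 33.1 CPM with APB-R3, against 31.4, 31.8 and 42.7 CPM with vehicle. Its log2 fold change of −0.19 (SE 0.14) was −0.04 without vehicle replicate 3, which alone lay above 40 CPM, and reached −0.27 with other libraries left out.

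The other 7 genes of this branch had overlapping groups and unadjusted p of 0.373 or more in edgeR's test. Fdft1, the squalene synthase, averaged 10.9 ± 2.58 CPM with APB-R3 and 11.8 ± 1.48 CPM with vehicle, and Cyp51, the lanosterol demethylase, averaged 30.7 ± 6.13 CPM with APB-R3 and 33.7 ± 4.51 CPM with vehicle (SD, n = 3 each). Lss, which closes squalene epoxide to lanosterol, was the lowest of the branch with 3.99 ± 0.942 CPM with APB-R3 and 4.76 ± 0.982 CPM with vehicle. The 95% interval of its log2 fold change ran from −1.02 to 0.49, and the parts of counting error and of variation between libraries in its width were not separated. Hsd17b7 and Nsdhl, which act in removing the methyl groups at C4, averaged 16.3 ± 5.21 and 10.3 ± 4.38 CPM with APB-R3, against 17.7 ± 1.51 and 11.5 ± 1.38 CPM with vehicle. Both had more spread among APB-R3 libraries, and Nsdhl had 15.3 CPM in APB-R3 replicate 3 against 7.23 and 8.29 CPM in the other APB-R3 libraries. Ebp and Dhcr7, late enzymes of ring isomerisation and reduction, were the members with log2 fold changes above 0, at 0.08 (SE 0.13) and 0.25 (SE 0.27).

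These 10 genes also differed in a common direction between libraries of the same group. APB-R3 replicate 3 was above APB-R3 replicate 2 in 10 of 10 and above APB-R3 replicate 1 in 8 of 10, where 53.8% and 54.6% of all tested genes were at least as high. Vehicle replicate 3 was above vehicle replicate 2 in 9 of 10 (53.6% of all tested genes) and above vehicle replicate 1 in 7 of 10 (50.2%). The median deviation from the mean of the 6 libraries on the log2 scale was −0.26, −0.14 and 0.22 in APB-R3 replicates 1 to 3 and 0.04, −0.05 and 0.27 in vehicle replicates 1 to 3. The spread within each group was thus larger than the difference between the groups. These comparisons within groups were chosen after the values were seen and carry no test. The 12 endothelial markers summed to 6149, 6532 and 7083 CPM in APB-R3 replicates 1 to 3 and 6523, 6798 and 7300 CPM in vehicle replicates 1 to 3, also lowest in APB-R3 replicate 1 and highest in replicate 3 of each group. Lyve1, the most abundant of them, was instead highest in APB-R3 replicate 1. The part of cell makeup in the sterol genes' levels was not tested.

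**Figure D3:**
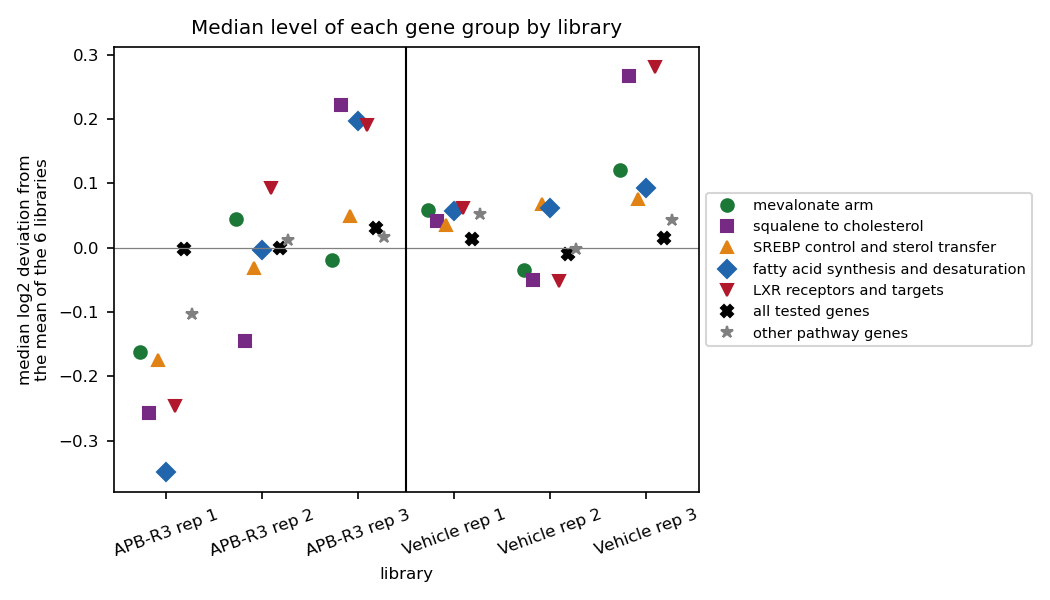
Median over the genes of each group of the log2 CPM minus the gene's mean over the 6 libraries, by library, for the 5 role groups, other genes of the pathway and all tested genes with a count in every library. All tested genes stayed between −0.01 and 0.03. The 5 role groups lay between −0.35 and −0.16 in APB-R3 replicate 1, and the squalene to cholesterol genes were at 0.22 and 0.27 in APB-R3 replicate 3 and vehicle replicate 3.

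Among the 9 genes of fatty acid synthesis and desaturation, 7 had log2 fold changes below 0 with a median of −0.12. Without APB-R3 replicate 1 it was 4 of 9, with a median of 0.02. Fasn, the fatty acid synthase, was the most abundant, with 83.6, 120 and 97.4 CPM with APB-R3, against 114, 118 and 105 CPM with vehicle. APB-R3 replicate 2 was the highest of all libraries, and the log2 fold change of −0.17 (SE 0.12) was −0.06 without APB-R3 replicate 1. Leaving out APB-R3 replicate 2 gave −0.32 (edgeR unadjusted p = 0.0126). Scd2, a stearoyl-CoA desaturase prominent in brain, had 57.3, 112 and 105 CPM with APB-R3, against 103, 103 and 113 CPM with vehicle. Only APB-R3 replicate 1 departed, and the log2 fold change of −0.22 (SE 0.16) was 0.02 without it and −0.40 without APB-R3 replicate 2 (edgeR unadjusted p = 0.0277). Scd1, the main form in liver, averaged 7.51 ± 1.55 CPM with APB-R3 and 8.15 ± 1.26 CPM with vehicle. Its highest value, 9.46 CPM, lay in vehicle replicate 2, the library with the highest hepatocyte marker sum. APB-R3 replicate 3 came next with 9.23 CPM, and the part of hepatocyte RNA in these values was not tested. Scd2 thus had more counts than Scd1 in each of the 6 libraries.

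Acaca, the acetyl-CoA carboxylase that makes malonyl-CoA, was the only gene of this group whose groups did not overlap. It had 11.8, 10.9 and 8.64 CPM with APB-R3, against 13.9, 11.8 and 12.2 CPM with vehicle. The nearest libraries, APB-R3 replicate 1 and vehicle replicate 2, were less than 0.1 CPM apart, and the log2 fold change was −0.28 (SE 0.22, edgeR unadjusted p = 0.209). Acly, which supplies acetyl-CoA from citrate, averaged 99.3 ± 18.5 CPM with APB-R3 and 106 ± 7.84 CPM with vehicle, with 79.9 CPM in APB-R3 replicate 1 and 101 to 117 CPM elsewhere. Acss2, which supplies it from acetate, had 3.16 ± 0.302 CPM with APB-R3 and 3.65 ± 0.807 CPM with vehicle. Fads1 and Fads2, the desaturases of polyunsaturated fatty acids, averaged 89.4 ± 20.4 and 46.6 ± 13.02 CPM with APB-R3, against 82.2 ± 3.85 and 48.0 ± 4.78 CPM with vehicle. APB-R3 replicate 1 was the lowest library for both. Without it, Fads1 had a log2 fold change of 0.28 with an edgeR unadjusted p of 0.0119 and an adjusted p of 0.9997, against 0.12 (SE 0.13) in all 6 libraries. Elovl6, the elongase of palmitate, had 4.69, 7.13 and 8.64 CPM with APB-R3, against 3.83, 7.85 and 6.19 CPM with vehicle, the widest spread of the tested members with a coefficient of variation of 29.0% over the 6 libraries.

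LXR, encoded by Nr1h3 (LXR alpha) and Nr1h2 (LXR beta), acts opposite to SREBP2 on cell cholesterol, and the groups overlapped for both receptors and their 3 targets, none of which passed the test. Nr1h2 averaged 30.6 ± 6.50 CPM with APB-R3 and 32.9 ± 3.10 CPM with vehicle, and Nr1h3 averaged 14.4 ± 4.01 CPM with APB-R3 and 13.4 ± 2.92 CPM with vehicle. Abca1, the exporter of cholesterol to apolipoprotein A1, was the most abundant of the 36 genes, with 223, 324 and 349 CPM with APB-R3, against 320, 275 and 372 CPM with vehicle. APB-R3 replicate 1 alone lay below the vehicle range, and the log2 fold change of −0.11 (SE 0.13) was 0.05 without it, in a range of −0.23 to 0.05 with libraries left out. Abcg1, the exporter to larger lipoproteins, had 41.6, 39.2 and 60.8 CPM with APB-R3, against 51.5, 45.1 and 62.1 CPM with vehicle. Its log2 fold change was −0.17 (SE 0.15), with replicate 3 the highest in each group. It was −0.38 without APB-R3 replicate 3 (edgeR unadjusted p = 0.0175) and −0.04 without vehicle replicate 3. Mylip, the ubiquitin ligase that removes lipoprotein receptors, had 46.1, 71.7 and 83.8 CPM with APB-R3, against 62.2, 64.9 and 82.5 CPM with vehicle. APB-R3 libraries held both its lowest and its highest value, and the log2 fold change of −0.06 (SE 0.16) ran from −0.23 to 0.14 with libraries left out, highest without APB-R3 replicate 1. Macrophage markers, from cells in which LXR genes are also active, summed to 469, 476 and 679 CPM with APB-R3 and 507, 586 and 403 CPM with vehicle, and their part in these values was not tested.

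**Figure D4:**
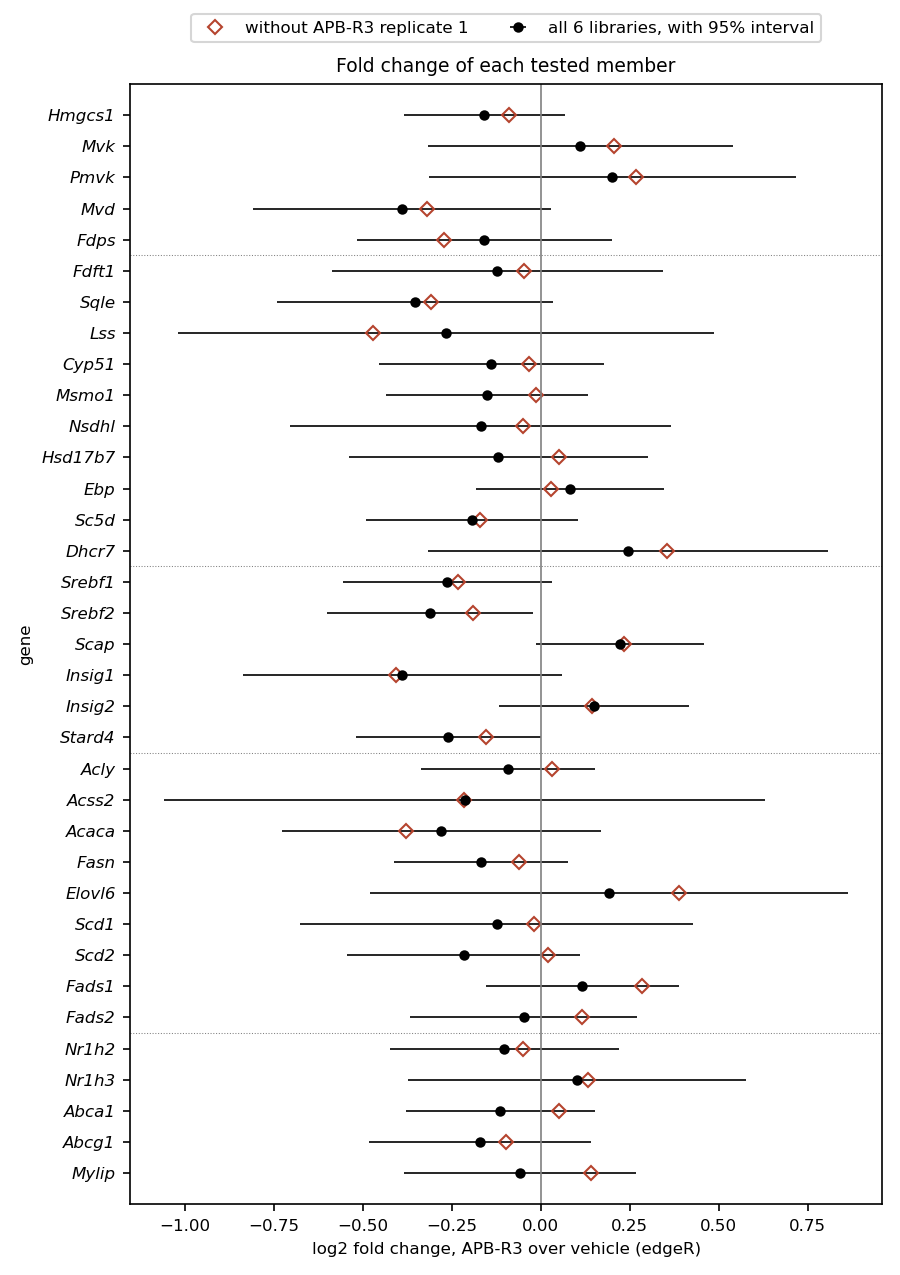
Log2 fold change of APB-R3 over vehicle in edgeR for the 35 tested members. Black points with 95% intervals, not adjusted for the number of genes, use all 6 libraries, and open diamonds leave out APB-R3 replicate 1. Only the interval of Srebf2 lay wholly below 0, and 20 of 35 diamonds lay below 0, against 26 of 35 points.

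APB-R3 replicate 1 held the lowest value of the 6 libraries in 18 of 35 tested members, where it did so in 21.6% of all tested genes, and the highest value in 0, against 19.5% of all tested genes. The highest value lay in APB-R3 replicate 3 in 11 members (18.5% of all tested genes) and in vehicle replicate 3 in 12 (14.1%). The summed level of all 36 members was 1233, 1579 and 1687 CPM in APB-R3 replicates 1 to 3, against 1569, 1539 and 1714 CPM in vehicle replicates 1 to 3. In this sum of all members, APB-R3 replicates 2 and 3 thus lay within the vehicle range, and replicate 1 below it. Besides its inflammatory genes, with 36.5 CPM of Il1b against 0.927 and 2.28 CPM in the other APB-R3 libraries and 0.476 to 1.92 CPM in vehicle libraries, this library had the smallest total count and the lowest endothelial sum. All listed endothelial markers but Lyve1 and Tie1 were lowest in it. Lyve1, the most abundant of them, was highest in it, at 1889 CPM against 1521 to 1773 CPM elsewhere. With counts thinned to the smallest library, 26 of 35 members had log2 fold changes below 0, with a median of −0.15. The part of the inflammatory and endothelial genes in the members' levels was not tested.

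**Figure D5:**
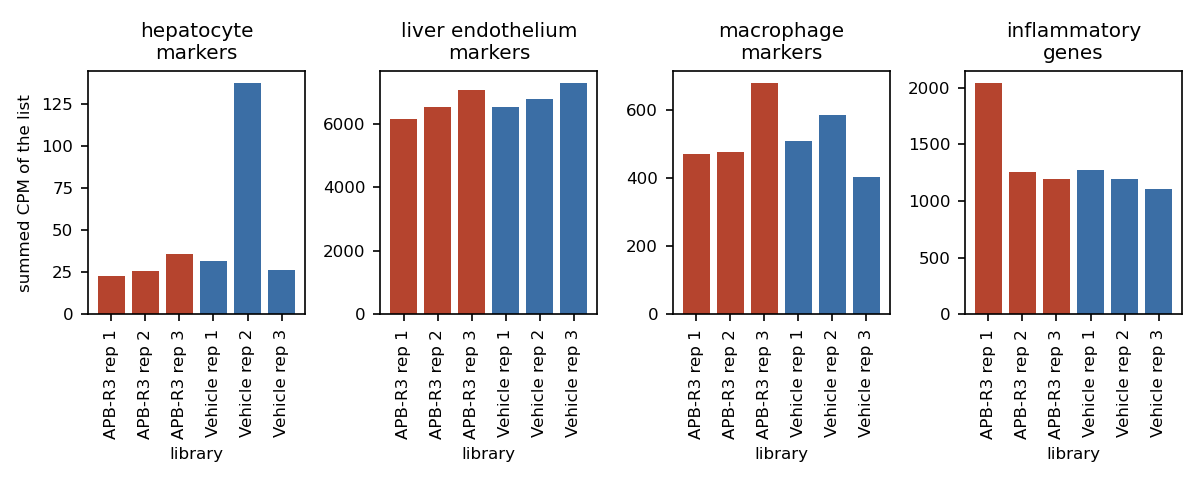
Summed CPM of the hepatocyte (13 genes), liver endothelium (12), macrophage (12) and inflammatory (12) lists by library, APB-R3 libraries in red and vehicle libraries in blue, with axes from 0. Vehicle replicate 2 stood at 137 CPM for hepatocyte markers and APB-R3 replicate 1 at 2042 CPM for inflammatory genes. The inflammatory genes were listed because 1 library stood apart for them in earlier results of these data.

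A further 39 genes of the same pathways were listed beside the members, of which all were found and 35 tested. None passed, 20 of 35 had a log2 fold change below 0, and the median was −0.03. Their groups did not overlap in 3 genes on the lower side (4.16% of all tested genes) and 2 on the higher side (4.75%). At an unadjusted p under 0.05 there were 3 lower in APB-R3 (1.57% of all tested genes) and 0 higher (1.75%). Acat2, the cytosolic thiolase that starts the mevalonate route, had 16.0, 17.2 and 18.8 CPM with APB-R3, against 23.3, 27.7 and 19.2 CPM with vehicle. The groups did not overlap, with a log2 fold change of −0.44 (SE 0.17, edgeR unadjusted p = 0.0190). Vehicle replicate 2, the library with the highest hepatocyte marker sum, was the highest, and without it the log2 fold change was −0.29 (edgeR unadjusted p = 0.138). Lpin1, a phosphatidate phosphatase, averaged 41.7 ± 5.35 CPM with APB-R3 and 52.4 ± 9.48 CPM with vehicle (log2 fold change −0.33, edgeR unadjusted p = 0.0253), or −0.20 without vehicle replicate 3. Acsl3, an acyl-CoA synthetase of lipid droplets, averaged 33.9 ± 3.21 CPM with APB-R3 and 40.9 ± 2.06 CPM with vehicle, without overlap (edgeR unadjusted p = 0.0425), and its log2 fold change ran from −0.34 to −0.24 with libraries left out. The levels of the members ran over more than 2 orders of magnitude, from 0.563 CPM for Idi1 to 310 CPM for Abca1 with a median of 29.8 CPM, above that of 57.7% of tested genes. Their coefficient of variation over the 6 libraries had a median of 16.7%, against 14.4% over all tested genes, and was lowest for Insig2 at 7.07%.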

How the data were processed

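Libraries were made from 500 ng of Trizol-extracted total RNA with the Lexogen Quant-Seq kit, per the labels' protocols. Such a kit primes at the poly(A) tail and is designed to give 1 fragment per transcript whatever its length. Reads were handled, per the submitters' processing notes, with bcl2fastq 2.20.0.422, fastp, STAR and HTSeq on GRCm39. Annotation release, strand setting and use of molecular identifiers are not stated in these sources, so that a count need not be 1 molecule and antisense overlaps are uncertain. The deposited values are whole-number counts per gene symbol, not normalized. The column name inside each file carries the number 2, 3 or 4 where the title has 1, 2 or 3, and the title was followed.

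Levels are CPM of the library total. Groups were compared with edgeR 4.0.16 in R 4.3.3 (filterByExpr at a minimum count of 10 and minimum total of 15, TMM scaling, glmQLFit and glmQLFTest, treatment as the only term), on all genes with Benjamini-Hochberg adjustment and a threshold of 0.05, two-sided. Standard errors were obtained by dividing the log2 fold change by the root of F. Of 40879 symbols 20496 had a count and 12776 were tested. DESeq2 1.42.0 and limma 3.58.1 (voom) were alternatives, with other scalings, filters, thinning, a replicate block and left-out libraries. Scripts were tested on simulated data. No pair of libraries agreed within sampling noise (chi-square per degree of freedom of 5.54 to 13.6 over genes with at least 20 counts). Values per library and test are given for members whose groups did not overlap, for those at an unadjusted p under 0.05, and in each role group for the most abundant member and those with the smallest p, other members in short. The members and lists were chosen with earlier results of these data known. The list does not hold every gene of these pathways.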

Additional observations from a re-analysis of the deposited data

How the results depend on the processing

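The count of members that passed edgeR's test was 0 in all alternatives, as was that of the other pathway genes. Over all genes it was 0 except with no filter on low counts (20 genes, none of them members) and with libraries left out singly (0 to 1, with 1 gene without vehicle replicate 3). The member median log2 fold change kept its sign in all alternatives, between −0.15 and −0.12 with all 6 libraries and between −0.23 and −0.03 with 1 library left out. It was −0.04 without both APB-R3 replicate 1 and vehicle replicate 2, with 21 of 35 members below 0. The labels do not say whether replicate numbers pair the libraries. Deviations from the group mean correlated weakly between same-numbered libraries (0.04, 0.05 and 0.07), and at −0.05 to −0.005 between differently numbered ones. Whether same-numbered libraries share a batch was not tested. With the replicate block the median was −0.15 and 0 genes passed. At an unadjusted p under 0.05, 4 members then lay lower (2.03% of all tested genes), against 1 without the block (1.57%). Of 523 member values under the alternatives, 22 turned sign, all with libraries left out, in 13 members, of which Hsd17b7, Acly, Scd2, Fads2, Abca1 and Mylip did so without APB-R3 replicate 1. With libraries left out, the log2 fold change ran from −0.39 to 0.050 for Hsd17b7, −0.21 to 0.032 for Acly, −0.40 to 0.020 for Scd2, −0.27 to 0.14 for Fads2, −0.23 to 0.052 for Abca1 and −0.23 to 0.14 for Mylip. It ran from −0.064 to 0.27 for Mvk, −0.56 to 0.032 for Nsdhl, −0.00050 to 0.24 for Ebp, −0.048 to 0.65 for Elovl6, −0.29 to 0.11 for Scd1, −0.30 to 0.017 for Nr1h2 and −0.15 to 0.30 for Nr1h3. Why APB-R3 replicate 1 departs was not tested. Acat2, Lpin1, Acsl3, Acta2 and Postn, whose alternatives were added after seeing the data, kept their sign in all. Standard errors were largest, from 0.25 to 0.41, for Pmvk, Nsdhl, Scd1, Dhcr7, Elovl6, Lss and Acss2, which had 207 to 663 counts over the 6 libraries, and counting error was not separated from variation between libraries.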

Other observations

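Among the members of the squalene to cholesterol branch, Fdft1, Nsdhl, Hsd17b7 and Dhcr7 had their highest level in APB-R3 replicate 3, and Sqle, Lss, Cyp51, Msmo1 and Sc5d in vehicle replicate 3. In APB-R3 replicate 1, by contrast, Fdps, Lss, Ebp, Scap, Insig2 and Acaca lay above the gene's mean over the 6 libraries on the log2 scale, by 0.12, 0.24, 0.14, 0.08, 0.07 and 0.04, while Scd2 lay 0.75 below. These values are descriptions of single libraries.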
